A study of Mus musculus with 8 samples.

Results

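The NF-kB pathway genes described here are 41 mouse genes that encode the NF-kB transcription factors, the IkB proteins and kinases that hold and release them, the receptors and adaptors that lead to them, and a few of the genes they induce. Their probe sets were found by an exact match of the gene symbol in the array's annotation, which gave 62 probe sets for 35 genes. The other 6 (Nfkb1, Chuk, Traf3, Ripk1, Ripk2 and Irak4) had no probe set named here and were not analysed. Il6 fell under the filter on dim probe sets, so 34 members were among the 11836 genes tested.

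The study deleted a Meis1 transgene from mouse myeloid cells that Hoxa9 and Meis1 had transformed, and asked which genes change when Meis1 is lost. In the 4 arrays called Meis1 deleted, cells had been given 2 µM 4-hydroxytamoxifen, which activates a Cre recombinase fused to the oestrogen receptor and expressed from the Rosa26 locus. In the 4 arrays called Hoxa9 and Meis1, the drug was left out. Cells of both groups came from C57BL/6 bone marrow of the Rosa26-Cre-ERT2 strain, carried retroviral Hoxa9 and a floxed retroviral Meis1, and grew as immortalized cultures with interleukin-3 at 5 ng/ml and serum at 10%. The drug and active Cre were present in the deleted group alone, so their effects cannot be told apart from that of Meis1 loss. No label says that the samples of a group were separate cultures, so the p-values cover sample-to-sample spread alone, and that spread may be technical. RNA came from whole cultures, in which fewer cells of a type and less RNA per cell cannot be told apart.

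NF-kB factors are dimers of Rel family proteins that IkB proteins keep in the cytoplasm. Receptors for tumour necrosis factor, interleukin-1 and microbial products signal through adaptors and ubiquitin ligases to the IkB kinase complex, which marks IkB proteins for destruction and frees the dimers to enter the nucleus. Several IkB genes and inhibitors are themselves induced by NF-kB and end the response, and in myeloid cells the pathway drives inflammatory cytokines and adhesion molecules. The arrays measure transcripts only, while the central step of the pathway acts on proteins.

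Meis1 deleted replicate 1 stood apart from the other arrays. Its Gapdh control read 0.72 higher (log2) at the 3′ end than at the 5′ end, against -0.07 to 0.04 on the other 7 arrays, and its values lay farthest from the group mean for 21 of the 34 tested members. The arrays also fell into 2 sets by the level of the bioB hybridisation control, at 4.04 to 4.28 on 3 deleted and 2 Hoxa9 and Meis1 arrays (set 1) and 6.43 to 6.61 on 1 deleted and 2 Hoxa9 and Meis1 arrays (set 2). Of 9 myeloid markers all lay above 4.69, the lowest array median, in both groups. The summed linear level of 8 macrophage markers was 10326 to 10799.7 in Meis1 deleted cells and 2609 to 2789 in Hoxa9 and Meis1 cells, with all 8 higher. That of 6 neutrophil markers was 10842 to 11536 in Meis1 deleted cells and 5234 to 5494 in Hoxa9 and Meis1 cells, with 4 higher and 1 lower. Macrophage and neutrophil markers under 4.69 in both groups numbered 0. The myeloid list summed to 15569 to 15866 in Meis1 deleted cells and 12340 to 12829 in Hoxa9 and Meis1 cells, with 5 of 9 higher and 3 lower. The sum of 4 megakaryocyte markers was 1266 to 1393 in Meis1 deleted cells and 170.1 to 176.5 in Hoxa9 and Meis1 cells. Of these only Pf4 was called, with a rise of 3.84 (log2). Itga2b differed by -0.21 and did not pass (limma adjusted p = 0.0796), and Gp1bb and Gp9 lay under 4.69 in both groups. The sum of 7 stroma markers was 972 to 1159 in Meis1 deleted cells and 2349.8 to 2619.9 in Hoxa9 and Meis1 cells. Thy1 was lower and the other 6 lay under 4.69 in both groups. These marker levels moved with every difference below, and their part in them was not tested.

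After Meis1 deletion, 19 of the 34 tested NF-kB pathway genes did not pass the test, and those that did went both ways. The IkB gene Nfkbie, the inhibitor Tnfaip3, the ligand Tnfsf9 and the effectors Tnfaip2 and Icam1 rose by 1.45-fold to 2.41-fold, while Nfkbia and the inflammasome gene Nlrp3 fell. Transcripts of the subunits Rela and Rel, the kinase subunit Ikbkb and the tumour necrosis factor receptors differed by less than the threshold could call. In all, 11 of the 34 tested members rose and 4 fell (limma, Benjamini-Hochberg adjusted p under 0.05), and their median log2 fold change was 0.01, beside -0.0044 over all genes. Among all genes tested 37.8% changed, 19.1% higher and 18.7% lower. Of the members 44.1% changed, 32.4% higher and 11.8% lower. Only the share of both directions together is near the background. Changes of at least 0.5 on the log2 scale that passed the test were seen in 7 members. They make 20.6% of those tested, beside 9.58% of all genes. Both these 7 and the 11 rises include Relb, which entered the test only through the Meis1 deleted arrays. The members were chosen with earlier results of these data known, so these shares describe them and are no independent result. The 4 values of one group did not overlap the 4 of the other in 15 of the 34 tested members. These were the 15 that passed, 44.1% of those tested, near the 38.6% of all genes without overlap. Without Meis1 deleted replicate 1 the same 15 passed.

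**Figure D1:**
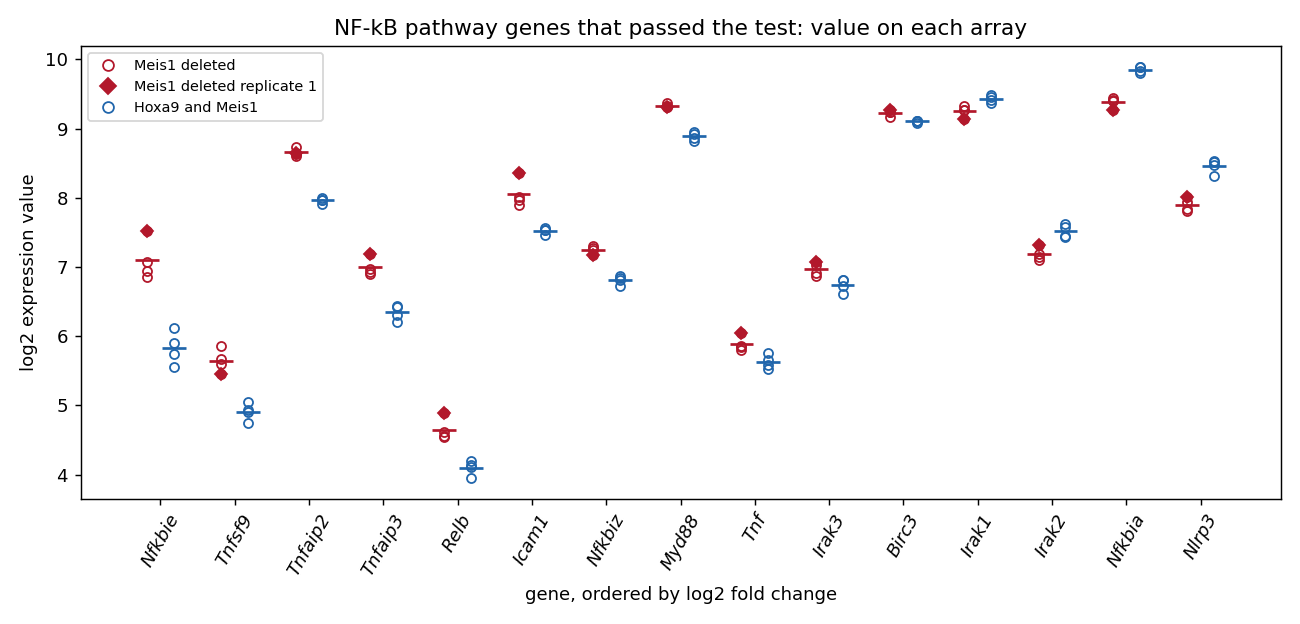
Log2 expression value on each array (y axis) of the 15 NF-kB pathway genes that passed the test, ordered along the x axis by log2 fold change. Red marks Meis1 deleted arrays, with replicate 1 as a filled diamond, blue marks Hoxa9 and Meis1 arrays, and lines are means of 4 arrays. In none of the 15 genes do the groups overlap.

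Of the 4 Rel family subunits measured, Rela, Rel and Nfkb2 did not pass the test, and Relb passed at dim values. Relb, which pairs with the Nfkb2 product in the non-canonical branch of the pathway, read 4.89, 4.55, 4.62 and 4.54 in Meis1 deleted cells and 3.95, 4.20, 4.14 and 4.11 in Hoxa9 and Meis1 cells. Every deleted array lay above every Hoxa9 and Meis1 array, though both group means were under 4.69. The mean of the Hoxa9 and Meis1 arrays, 4.10, lay under the filter level of 4.29, so Relb entered the test only through the Meis1 deleted arrays, and its call does not support a change among the subunits. Relb rose by 0.55 ± 0.08 (SE) on the log2 scale (limma adjusted p = 0.000593), and by 0.14 with an offset of 64 on the linear scale.

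Rela, the main activating subunit, read 9.24, 8.92, 8.85 and 8.88 in Meis1 deleted cells and 9.05, 9.07, 8.84 and 8.88 in Hoxa9 and Meis1 cells. The groups overlapped, and the difference was 0.01 with a 95% interval of -0.20 to 0.22. Rel, the subunit prominent in blood cells, read 5.77, 5.68, 5.63 and 5.58 in Meis1 deleted cells and 5.81, 5.63, 5.56 and 5.57 in Hoxa9 and Meis1 cells. The difference of Rel was 0.02 (-0.12 to 0.17), again within the spread of the arrays. Nfkb2, whose precursor is cut to a mature subunit, read 5.12, 5.41, 5.25 and 5.36 in Meis1 deleted cells and 5.11, 5.25, 5.10 and 5.35 in Hoxa9 and Meis1 cells. Its difference was 0.08 (-0.09 to 0.26), and the groups overlapped.

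Of the 6 IkB genes 2 rose, 1 fell and 3 did not pass. Nfkbie, which encodes IkB epsilon, a cytoplasmic inhibitor of Rel dimers, read 7.53, 6.85, 6.94 and 7.07 in Meis1 deleted cells and 5.74, 5.55, 5.90 and 6.12 in Hoxa9 and Meis1 cells. It was the largest change among the members, with every deleted array higher and replicate 1 the highest. Nfkbie rose by 1.27 ± 0.16 (2.41-fold, limma adjusted p = 0.000121), by 1.13 without Meis1 deleted replicate 1, and by 1.46 and 1.06 within array sets 1 and 2. With an offset of 64 on the linear scale, which damps differences between low values, the rise of Nfkbie was 0.74. This probe set is of the kind that Affymetrix names s_at, whose probes can match several transcripts. A dimmer probe set of Nfkbie rose too, at 4.75 ± 0.15 in Meis1 deleted cells and 4.16 ± 0.12 in Hoxa9 and Meis1 cells (SD, n = 4 each). The rise was 0.59 ± 0.08 (limma adjusted p = 0.000726 over all probe sets). Its Hoxa9 and Meis1 mean lay under the filter level of 4.29. As with Relb, it was over the filter only through the Meis1 deleted arrays and gives no separate support.

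Nfkbia, which encodes IkB alpha, the inhibitor that resets the pathway soon after it is activated, read 9.26, 9.42, 9.45 and 9.40 in Meis1 deleted cells and 9.80, 9.83, 9.89 and 9.90 in Hoxa9 and Meis1 cells. All deleted arrays were lower, and the values within each group lay close together. Nfkbia fell by 0.47 ± 0.05 (1.39-fold lower, limma adjusted p = 5.78e-05). Nfkbiz, a nuclear IkB protein that helps switch on secondary response genes in macrophages, read 7.18, 7.28, 7.30 and 7.24 in Meis1 deleted cells and 6.87, 6.72, 6.81 and 6.84 in Hoxa9 and Meis1 cells. It rose by 0.44 ± 0.05 (limma adjusted p = 5.93e-05). Its dimmer probe sets differed by 0.18 and 0.19 and did not pass over all probe sets (adjusted p = 0.0664 and 0.178).

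The other 3 IkB genes did not pass. Nfkbib, a cytoplasmic relative of IkB alpha, read 6.80, 6.89, 6.86 and 6.83 in Meis1 deleted cells and 6.88, 6.82, 6.72 and 6.89 in Hoxa9 and Meis1 cells, a difference of 0.02 (-0.09 to 0.13). Nfkbid, a nuclear IkB, read 6.74, 6.79, 6.76 and 6.81 in Meis1 deleted cells and 6.80, 6.80, 6.82 and 6.97 in Hoxa9 and Meis1 cells, a difference of -0.07 (-0.18 to 0.04). Bcl3, a nuclear IkB that binds dimers on DNA, read 7.58, 7.18, 7.17 and 7.28 in Meis1 deleted cells and 7.36, 7.33, 7.27 and 7.40 in Hoxa9 and Meis1 cells, a difference of -0.04 (-0.23 to 0.15). The high value of Bcl3 came from Meis1 deleted replicate 1. Without that array the difference was -0.13 (limma adjusted p = 0.0502), and with the array sets as a block as well Bcl3 passed as lower (adjusted p = 0.0463).

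Promoters of members that changed in both directions held the NF-kB binding motif. RefSeq promoters (GRCm38.p6) were matched by symbol for 34 of the 41 members, and the 250 bases before each start were searched on both strands for the kappa B consensus of 10 letters. It was found for 13 of these members (38.2%), beside 8.23% of 27025 genes with such a promoter and 9.08% of 17492 protein-coding ones. A gene counted if any of its listed starts held a match, and genes differ in their number of starts. The members also include genes that NF-kB is known to induce, so their share is no independent result. The consensus stood in 6 of the 12 members that passed the test and have a promoter, and in 5 of the 17 tested members that did not pass. A match of letters is a description and does not show binding. Shown with the match in capitals, 5′ to 3′ along the gene, are the promoters of Nfkbie and Tnfaip3, which rose, and of Nfkbia and Nlrp3, which fell; each ends at the base before the start.
Nfkbie, chr17:45555450-45555699, plus strand: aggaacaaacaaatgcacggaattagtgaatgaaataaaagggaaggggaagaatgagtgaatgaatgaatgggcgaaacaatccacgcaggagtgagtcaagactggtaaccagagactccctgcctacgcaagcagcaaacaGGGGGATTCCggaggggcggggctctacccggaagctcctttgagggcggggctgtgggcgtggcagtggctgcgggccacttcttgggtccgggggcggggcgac
Tnfaip3, chr10:19015411-19015660, minus strand: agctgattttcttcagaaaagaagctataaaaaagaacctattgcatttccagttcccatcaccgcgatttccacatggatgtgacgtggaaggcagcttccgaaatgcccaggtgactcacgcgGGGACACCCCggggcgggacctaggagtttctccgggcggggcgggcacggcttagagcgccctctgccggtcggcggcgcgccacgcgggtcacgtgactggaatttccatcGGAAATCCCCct
Nfkbia, chr12:55492648-55492897, minus strand: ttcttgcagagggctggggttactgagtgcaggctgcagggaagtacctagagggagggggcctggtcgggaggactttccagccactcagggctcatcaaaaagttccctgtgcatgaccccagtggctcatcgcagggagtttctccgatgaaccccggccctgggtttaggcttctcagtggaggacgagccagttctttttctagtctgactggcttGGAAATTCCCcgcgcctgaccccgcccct
Nlrp3, chr11:59541319-59541568, plus strand: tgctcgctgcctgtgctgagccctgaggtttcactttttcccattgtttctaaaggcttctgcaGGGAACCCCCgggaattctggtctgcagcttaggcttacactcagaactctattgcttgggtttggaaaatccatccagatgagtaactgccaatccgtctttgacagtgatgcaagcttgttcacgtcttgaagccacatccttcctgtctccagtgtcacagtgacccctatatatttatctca
The match lies at -106 to -97 from the start of Nfkbie, at -125 to -116 and at -12 to -3 for Tnfaip3, at -29 to -20 for Nfkbia and at -186 to -177 for Nlrp3. Tnfaip3 and Nlrp3 each have a further listed start whose window held no match. The Meis core TGACAG, searched the same way, was found for 6 of the 34 members (17.6%), beside 17.95% of all genes. Over their listed starts Nlrp3, Tank, Tnfaip3 and Tnip1 held both motifs, but no bases of a Meis core match lay within a kappa B match.

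The kinase genes that act on IkB proteins showed no called difference in their highest probe set. Ikbkb, the catalytic subunit of the canonical branch, averaged 8.97 ± 0.14 in Meis1 deleted cells and 8.95 ± 0.07 in Hoxa9 and Meis1 cells (SD, n = 4 each), a difference of 0.02 (-0.14 to 0.17). Map3k14, the kinase that starts the non-canonical branch, averaged 5.38 ± 0.16 in Meis1 deleted cells and 5.48 ± 0.04 in Hoxa9 and Meis1 cells, a difference of -0.10 (-0.27 to 0.07).

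Ikbkg, the regulatory subunit of the kinase complex, depended on the probe set. Its highest averaged 7.75 ± 0.09 in Meis1 deleted cells and 7.81 ± 0.13 in Hoxa9 and Meis1 cells, a difference of -0.06 (-0.23 to 0.10). The next read 7.57, 7.50, 7.58 and 7.66 in Meis1 deleted cells and 7.36, 7.24, 7.29 and 7.39 in Hoxa9 and Meis1 cells. There the groups did not overlap, and Ikbkg rose by 0.25 ± 0.05 (limma adjusted p = 0.00724 over all probe sets). Of its 6 probe sets 3 passed as higher, by 0.25 to 0.34, and 0 as lower. Over all 62 probe sets of the members 15 passed as higher and 7 as lower. Of all probe sets 18.8% were called without a filter, in either direction. That share also covers the dim and the unnamed probe sets, so it is not a like background for the members. Among genes over the filter 37.8% changed. Of the 16 members with several probe sets 0 had called ones in both directions.

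**Figure D2:**
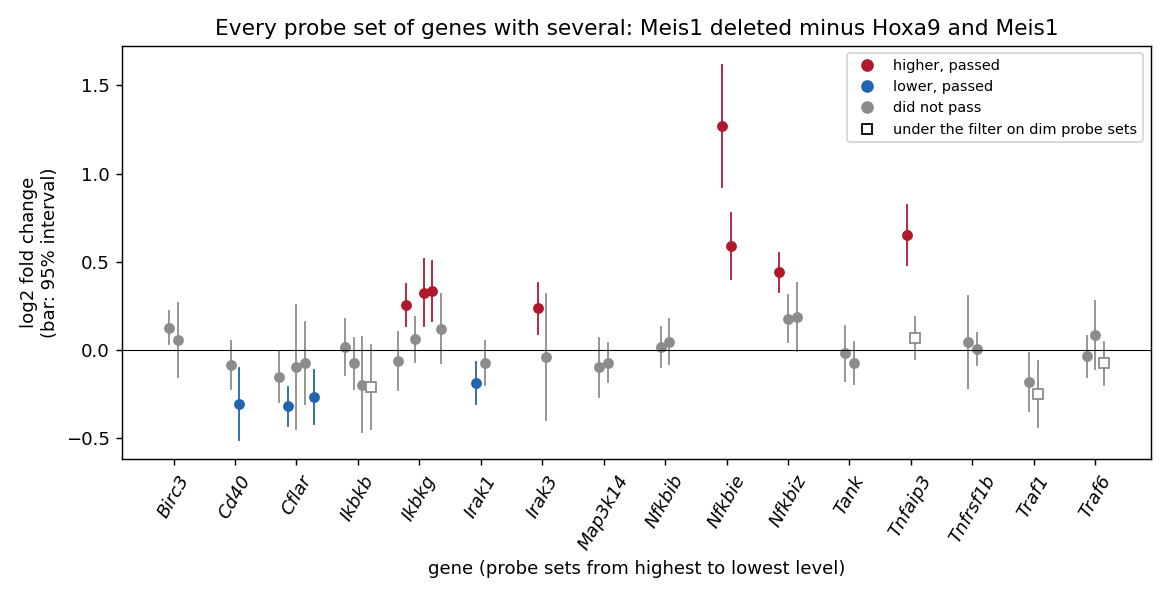
Log2 fold change, Meis1 deleted minus Hoxa9 and Meis1 (y axis), of every probe set of the 16 members that have several (x axis), with 95% intervals. Red passed as higher, blue as lower, grey did not pass in the fit over all probe sets, and open squares lie under the filter on dim probe sets. Ikbkg, Cflar, Cd40, Irak1, Irak3, Nfkbiz and Tnfaip3 hold called and uncalled probe sets side by side. Neither probe set of Birc3 passed in this fit. Both probe sets of Nfkbie passed as higher, the dimmer one being over the filter only through the Meis1 deleted arrays.

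Of the 4 inhibitors of the signalling steps, 2 rose. Tnfaip3, a ubiquitin-editing enzyme that shuts down NF-kB signalling, read 7.18, 6.93, 6.97 and 6.90 in Meis1 deleted cells and 6.42, 6.44, 6.31 and 6.21 in Hoxa9 and Meis1 cells. The groups were well separated, and Tnfaip3 rose by 0.65 ± 0.07 (1.57-fold, limma adjusted p = 7.89e-05), and by 0.40 with the offset of 64. A second probe set, at 4.01 ± 0.07 in Meis1 deleted cells and 3.94 ± 0.06 in Hoxa9 and Meis1 cells, lay under the filter. Irak3, a kinase-dead relative of the interleukin-1 receptor kinases that restrains them in macrophages, read 7.07, 6.92, 6.87 and 7.03 in Meis1 deleted cells and 6.81, 6.60, 6.81 and 6.73 in Hoxa9 and Meis1 cells. It rose by 0.24 ± 0.06 (limma adjusted p = 0.0163), but not with the mean of its probe sets (0.10, adjusted p = 0.309) nor within array sets 1 and 2 (0.25 and 0.26, adjusted p = 0.124 and 0.0551). Tnip1, a partner of the Tnfaip3 protein, differed by 0.03 (-0.10 to 0.16) and Tank, an adaptor of TRAF proteins, by -0.02 (-0.17 to 0.14).

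Both measured ligand genes rose. Tnfsf9, a ligand of the tumour necrosis factor family that costimulates T cells, read 5.46, 5.86, 5.67 and 5.60 in Meis1 deleted cells and 5.04, 4.90, 4.75 and 4.94 in Hoxa9 and Meis1 cells. All deleted arrays were higher, at low levels, with a rise of 0.74 ± 0.09 (1.67-fold, limma adjusted p = 0.000108), and 0.28 with an offset of 64 on the linear scale. Tnf, the cytokine that gives the family its name, read 6.04, 5.84, 5.85 and 5.81 in Meis1 deleted cells and 5.75, 5.52, 5.59 and 5.66 in Hoxa9 and Meis1 cells. It rose by 0.25 ± 0.07 (limma adjusted p = 0.0138), though not within array sets 1 and 2 (0.27 and 0.18, adjusted p = 0.111 and 0.110). The cytokine gene Il6 lay near the floor of the table in both groups, at 3.37, 3.42, 3.65 and 3.51 in Meis1 deleted cells and 3.21, 3.28, 3.28 and 3.22 in Hoxa9 and Meis1 cells, and its difference of 0.24 ± 0.06 in the fit over all probe sets (limma adjusted p = 0.0244) is between dim values.

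None of the 3 receptor genes passed in its highest probe set. Tnfrsf1a, the widely expressed tumour necrosis factor receptor, averaged 8.94 ± 0.04 in Meis1 deleted cells and 9.01 ± 0.03 in Hoxa9 and Meis1 cells, a difference of -0.06 (-0.16 to 0.03). Tnfrsf1b, the second receptor, averaged 8.87 ± 0.28 in Meis1 deleted cells and 8.82 ± 0.07 in Hoxa9 and Meis1 cells, a difference of 0.05 (-0.22 to 0.31). The wide spread of Tnfrsf1b in the deleted group came from values of 8.60 to 9.19. Cd40, which signals in antigen-presenting cells, averaged 5.25 ± 0.07 in Meis1 deleted cells and 5.33 ± 0.10 in Hoxa9 and Meis1 cells, a difference of -0.08 (-0.22 to 0.05). A second, dimmer probe set of Cd40 passed as lower over all probe sets (-0.31 ± 0.09, limma adjusted p = 0.0422).

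Among the TRAF and IAP ubiquitin ligases that link receptors to the kinases, 1 of 5 measured genes passed. Birc3, which ubiquitinates RIPK1 at tumour necrosis factor receptors, read 9.27, 9.24, 9.17 and 9.24 in Meis1 deleted cells and 9.12, 9.08, 9.12 and 9.11 in Hoxa9 and Meis1 cells. The rise was 0.13 ± 0.04 (1.09-fold, limma adjusted p = 0.0306), the smallest of those called. It was lost under 10 of 22 alternatives, among them the mean of its probe sets (adjusted p = 0.206) and the fit within each array set (adjusted p = 0.171 and 0.173). In the fit over all probe sets this probe set of Birc3 did not pass either (limma adjusted p = 0.0631). Birc2, a relative of Birc3, differed by -0.11 (-0.26 to 0.03). Traf2, an adaptor of both branches, differed by -0.06 (-0.16 to 0.05), and Traf6, the ligase downstream of interleukin-1 and toll-like receptors, by -0.03 (-0.15 to 0.08). Traf1, an induced modulator of the Traf2 protein, averaged 4.59 ± 0.15 in Meis1 deleted cells and 4.77 ± 0.07 in Hoxa9 and Meis1 cells and did not pass (-0.18, -0.35 to -0.02, limma adjusted p = 0.0740). Traf1 passed as lower under 3 of the 21 alternatives that tested it, among them the fit without Meis1 deleted replicate 3.

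The adaptor and kinases below toll-like and interleukin-1 receptors moved apart. Myd88, the adaptor that binds those receptors, read 9.31, 9.33, 9.37 and 9.32 in Meis1 deleted cells and 8.94, 8.93, 8.87 and 8.82 in Hoxa9 and Meis1 cells. With a narrow spread on both sides, Myd88 rose by 0.44 ± 0.04 (1.36-fold, limma adjusted p = 2.81e-05). Irak2, a kinase that prolongs the signal, read 7.32, 7.20, 7.14 and 7.11 in Meis1 deleted cells and 7.62, 7.58, 7.43 and 7.44 in Hoxa9 and Meis1 cells. Irak2 fell by 0.33 ± 0.06 (1.25-fold lower, limma adjusted p = 0.00274). Irak1, the kinase that Myd88 complexes activate, read 9.14, 9.33, 9.27 and 9.26 in Meis1 deleted cells and 9.49, 9.46, 9.38 and 9.41 in Hoxa9 and Meis1 cells. Irak1 fell by 0.18 ± 0.05 (limma adjusted p = 0.0187), a call lost with the mean of its probe sets (-0.13, adjusted p = 0.0596), within array sets 1 and 2 (-0.23 and -0.13, adjusted p = 0.0767 and 0.184) and without Hoxa9 and Meis1 replicate 1 (-0.16, adjusted p = 0.0537).

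Of the 4 genes that NF-kB is known to induce or that act as effectors, 2 rose and 1 fell. Tnfaip2, a tumour necrosis factor induced gene of myeloid and endothelial cells, read 8.65, 8.60, 8.63 and 8.74 in Meis1 deleted cells and 7.91, 8.002, 7.97 and 7.97 in Hoxa9 and Meis1 cells. It had the smallest adjusted p of the members, with a rise of 0.69 ± 0.05 (1.62-fold, limma adjusted p = 1.26e-06). Icam1, the ligand of leukocyte integrins, read 8.35, 7.90, 8.01 and 7.97 in Meis1 deleted cells and 7.54, 7.47, 7.57 and 7.53 in Hoxa9 and Meis1 cells. Icam1 rose by 0.53 ± 0.09 (limma adjusted p = 0.00100), and by 0.43 without the high Meis1 deleted replicate 1.

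Nlrp3, the sensor of the inflammasome that matures interleukin-1 beta, read 8.01, 7.84, 7.81 and 7.94 in Meis1 deleted cells and 8.48, 8.32, 8.51 and 8.53 in Hoxa9 and Meis1 cells. It was the largest fall among the members, by 0.56 ± 0.06 (1.47-fold lower, limma adjusted p = 7.66e-05). Cflar, which blocks caspase activation by death receptors, averaged 8.19 ± 0.08 in Meis1 deleted cells and 8.34 ± 0.10 in Hoxa9 and Meis1 cells and did not pass (-0.15, -0.29 to -0.01, limma adjusted p = 0.0853). Of its 5 probe sets 2 passed as lower over all probe sets, by -0.32 ± 0.05 and -0.27 ± 0.07, and the mean of its probe sets passed as well (-0.18, adjusted p = 0.0123).

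**Figure D3:**
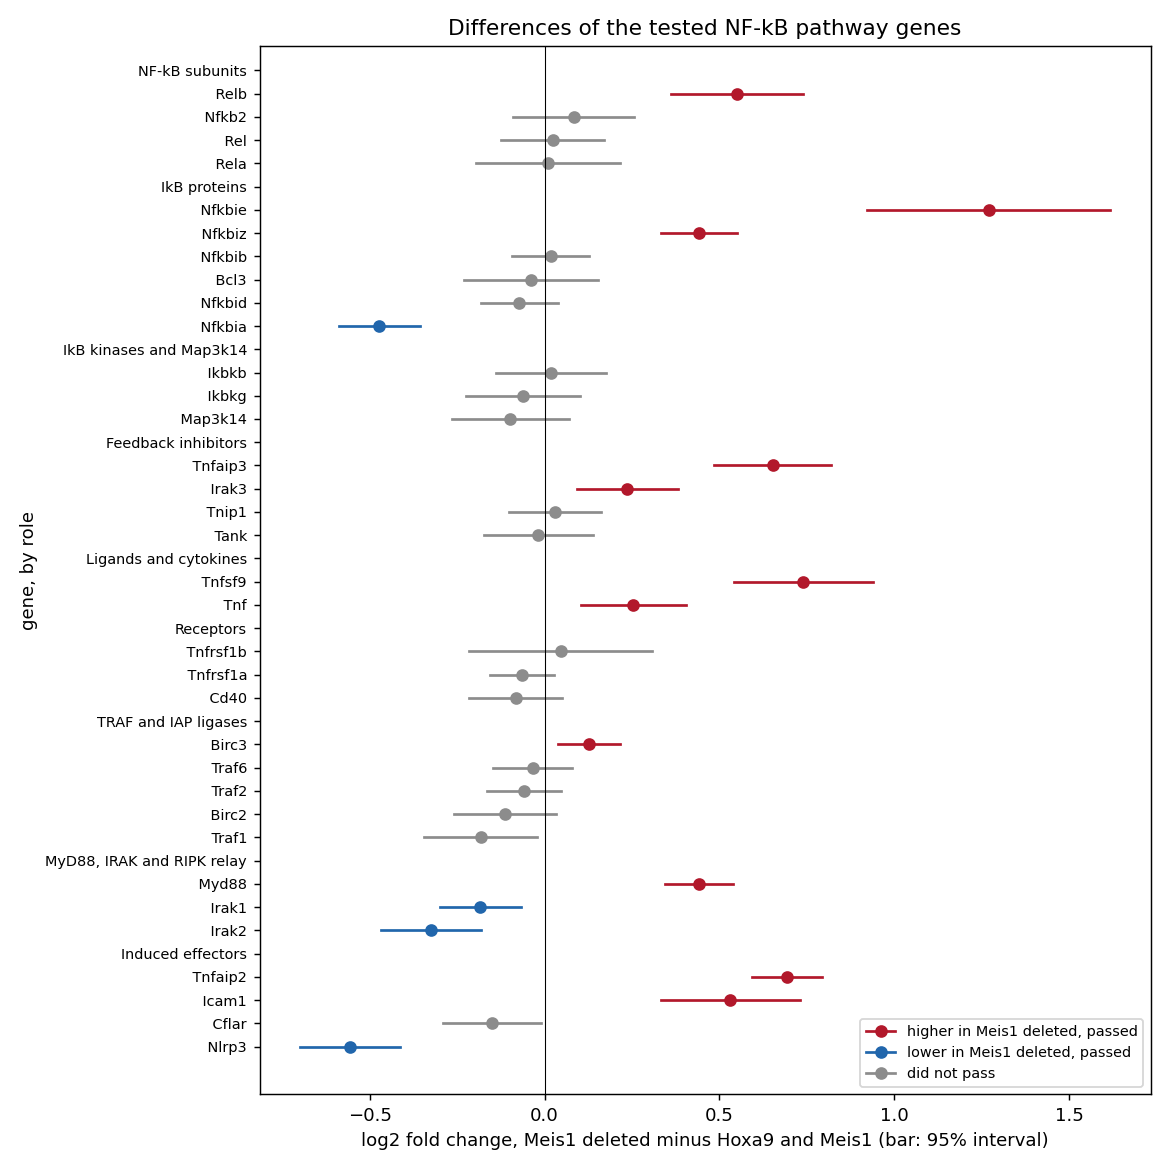
Log2 fold change, Meis1 deleted minus Hoxa9 and Meis1 (x axis), of the 34 tested members (y axis, grouped by role), with 95% intervals from limma. Red genes passed as higher (11), blue as lower (4) and grey did not pass (19); Nfkbie lies farthest right at 1.27 and Nlrp3 farthest left at -0.56.

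The 19 members that did not pass had differences of at most 0.18 in size, and their 95% intervals reached from -0.35 to 0.31. Of these, 14 passed under none of the alternatives that tested them, out of 22 run, while Bcl3, Ikbkg, Cd40, Traf1 and Cflar passed under at least 1. Of the 15 that passed, 11 did so under every alternative that tested them, and Irak3, Tnf, Birc3 and Irak1 did not. The 11 include Relb, which entered the test only through the Meis1 deleted arrays, so its repeated calls add no support. Relb and Tnfsf9 were not tested under the stricter filter.

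Further genes of the pathway were taken from 3 lists, which were chosen with earlier results of these data known. Of 37 listed relay genes 31 were tested, of which 7 rose and 6 fell, with a median of 0.0023, beside 19.1% of all genes higher and 18.7% lower. These shares are near those of all genes. Map3k8, a kinase that couples NF-kB signalling to ERK in macrophages, read 6.57, 6.07, 6.01 and 6.08 in Meis1 deleted cells and 4.88, 4.82, 4.86 and 5.02 in Hoxa9 and Meis1 cells, with no overlap. Map3k8 rose by 1.28 ± 0.11 (limma adjusted p = 1.20e-05), and by 0.55 with the offset of 64. Rnf31, the catalytic subunit of the linear ubiquitin ligase, rose by 0.76 ± 0.14 (0.29 with the offset, and not called within array set 1, adjusted p = 0.0703), the IKK-related kinase gene Ikbke by 0.39 ± 0.05, and Pik3ap1, a signalling adaptor of toll-like receptors, by 0.36 ± 0.05. Bcl10, which joins CARD proteins to the kinase complex, fell by 0.47, Tirap, the bridge between toll-like receptors and the MyD88 protein, fell by 0.36, and Tab3, a partner of the kinase TAK1, fell by 0.33. Tradd, the adaptor of Tnfrsf1a, fell by 0.29 (adjusted p = 0.0473), a call lost under 14 of 22 alternatives.

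Of 37 listed members of the tumour necrosis factor superfamily outside the 41 genes, 20 were tested, of which 6 rose and 4 fell, with a median of 0.09, beside 19.1% and 18.7% of all genes. Tnfrsf12a, a receptor induced by growth factors, read 6.02, 6.08, 6.05 and 6.20 in Meis1 deleted cells and 7.49, 7.52, 7.82 and 7.87 in Hoxa9 and Meis1 cells, a wide separation. Tnfrsf12a fell by 1.59 ± 0.09 (limma adjusted p = 4.96e-07; -1.03 with the offset). Tnfrsf18, a costimulatory receptor, fell by 0.69, the B-cell survival factor Tnfsf13b fell by 0.44, and Tnfrsf9, the receptor of the Tnfsf9 protein, fell by 0.28 (adjusted p = 0.0304, lost under 6 of 22 alternatives). The ligand Tnfsf13 (0.66 ± 0.05), the death receptor Fas (0.62 ± 0.08, and 0.25 with the offset), the ligand Tnfsf14 (0.41 ± 0.05) and the decoy receptor Tnfrsf22 (0.34 ± 0.07) rose. When probe sets of the same gene were averaged, Tnfsf14, Tnfrsf22 and Tnfsf13b did not pass (adjusted p = 0.175, 0.256 and 0.0717).

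Of 37 further genes known to be induced through NF-kB among other signals, 32 were tested, of which 22 rose and 7 fell. Among all genes 19.1% were higher and 18.7% lower. The median of the list was 0.47, beside -0.0044 over all genes. As the list was chosen with earlier results of these data known, these counts describe it and are no independent support for a response of the pathway. Saa3, an acute-phase protein of macrophages, read 11.71, 11.68, 11.69 and 11.60 in Meis1 deleted cells and 7.80, 7.86, 7.68 and 7.81 in Hoxa9 and Meis1 cells, far apart. Saa3 rose by 3.88 ± 0.05 (limma adjusted p = 1.06e-11), the chemokine gene Ccl2 by 4.51 ± 0.04, Il1rn, which encodes the natural blocker of interleukin-1 receptors, by 1.79 ± 0.11, and the chemokine gene Cxcl10 by 1.56 ± 0.08 (0.87 with the offset). Several of these are also interferon-induced or macrophage genes. Zc3h12a, an RNase that destroys inflammatory transcripts, read 5.41, 5.09, 5.14 and 5.31 in Meis1 deleted cells and 6.13, 6.11, 6.25 and 6.26 in Hoxa9 and Meis1 cells, and fell by 0.95 ± 0.08 (limma adjusted p = 5.46e-06; -0.43 with the offset). Plaur, the urokinase receptor, fell by 0.79, the prostaglandin synthase gene Ptgs2 fell by 0.63, and the hyaluronan receptor gene Cd44 fell by 0.39. Without Meis1 deleted replicate 1 the count of higher genes stayed at 22.

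**Figure D4:**
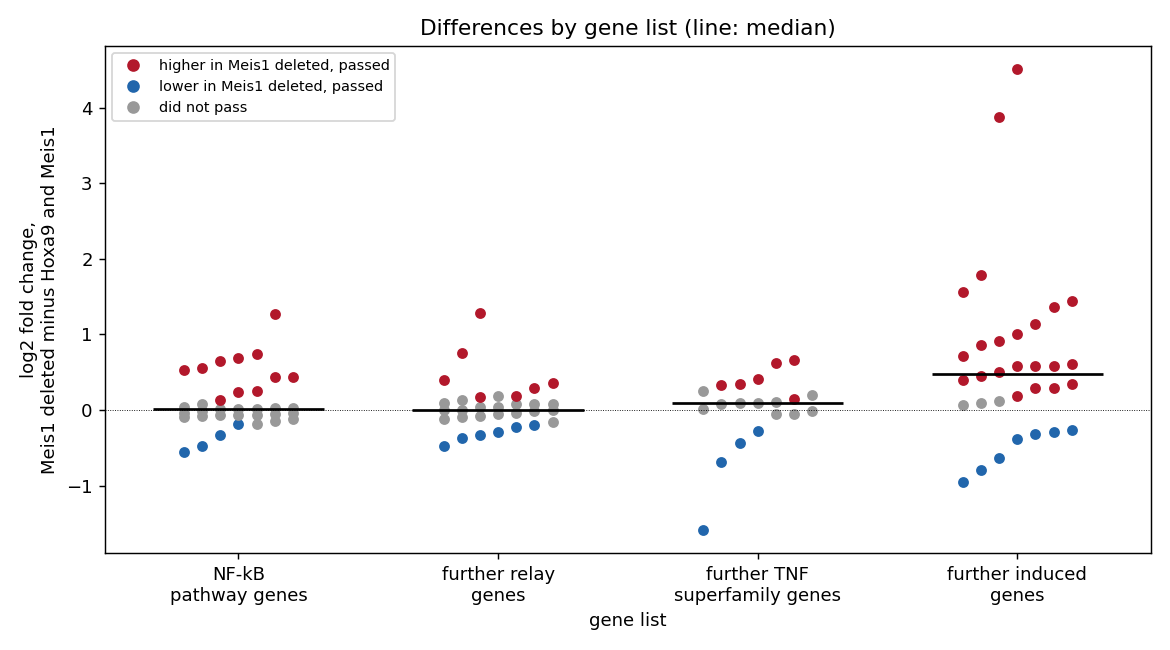
Log2 fold change, Meis1 deleted minus Hoxa9 and Meis1 (y axis), of each tested gene in the 41-gene pathway set and in the 3 further lists (x axis). Red passed as higher, blue as lower and grey did not pass, and the black line is the median. The further induced genes have a median of 0.47, against 0.01 for the pathway genes. All lists were chosen with earlier results of these data known.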

How the data were processed

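Biotin-labelled cRNA from 100 ng total RNA per sample was hybridised to 8 Affymetrix arrays, 4 per group, per the labels' protocols. The authors deposited a log2 value for each probe set on each array. The log2 scale was read from the range (2.65 to 13.2), and normalization between arrays from medians of 4.69 to 4.74. The submitters' processing notes list MAS5 but not its version or what it did, and how probes were summarised is not given in the sources. No detection calls were used. For arrays, their number limits the precision.

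Values were used as deposited. Of 45037 probe sets that are not controls, 28898 had 1 gene symbol, 551 several and 15588 none here. Probe sets whose 8-array mean ranked in the bottom 40% (under 4.29) were dropped, and the highest remaining probe set stood for its gene. Groups from the labels were compared with limma's moderated linear model (version 3.58.1, R 4.3.3) over all 11836 genes, with Benjamini-Hochberg adjustment and a threshold of 0.05. Each log2 fold change is the Meis1 deleted mean minus the other group's mean, with limma's standard errors and 95% intervals. A fit over all probe sets without the filter described each probe set. The procedure was tested on simulated data. Members and lists were chosen with earlier results of these data known. All members are accounted for; values of each array are given for Rel and IkB genes and for members past the test with a change of at least 0.5, and up to 4 genes per direction and list, those furthest moved, are named. Array values of further members and of 4 list genes were added after they were seen. The 22 alternatives covered an offset, normalization, the filter, probe sets, the variance model, array weights, blocks, array sets and left-out arrays. Motifs were searched in Python 3.11.15, and matplotlib 3.10.9 drew the plots.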

Additional observations from a re-analysis of the deposited data

Results flagged for a closer look

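In 3 of the 68 gene and group combinations looked at, 1 array stood far from the other 3 by Dixon's criterion, where chance marks about 1 in 20. Tank read 9.99 on Meis1 deleted replicate 1, against 9.68 to 9.72 on the other deleted arrays. Nfkbid read 6.97 on Hoxa9 and Meis1 replicate 4, against 6.80 to 6.82 on the others of that group. Cd40 read 5.47 on Hoxa9 and Meis1 replicate 3, against 5.27 to 5.29 on the others. None of these 3 genes passed the test.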

How the results depend on the processing

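The counts of members that rose (8 to 12) and fell (3 to 7) came from the same 34 genes under most alternatives; 7 fell when Meis1 deleted replicate 1 was dropped and array set entered as a block, where Bcl3, Cflar and Traf1 were added. Leaving out 1 array gave 10 to 11 rises, 3 to 5 falls and a median of -0.03 to 0.02. Fewer arrays were fitted within the array sets, and the lone deleted array of set 2 was assumed to vary like the others: there 1408 genes rose and 1129 fell in set 1, and 1450 fell in set 2, beside 2264 and 2210 over all arrays, and in set 2 the relay list had 4 rises and 3 falls, beside 7 and 6. Ikbkg turned from -0.06 to 0.17 with the mean of its probe sets (adjusted p = 0.0104), and 3 of its 6 probe sets passed at 0.34, 0.25 and 0.32, while the other 3 did not pass (-0.06, 0.06 and 0.12). The dim probe set of Irak3 differed between the groups by -0.040, uncalled. Under the stricter filter, which drops the lowest 60%, Relb, Tnfsf9, Nfkb2, Cd40 and Traf1 were not tested. A fit over all kept probe sets, added after seeing the data, called 4206 genes and the same 15 members. With the replicate number as a block 14 members passed, without Birc3, and 4433 genes, beside 4474; deviations of same-numbered arrays correlated by 0.03, 0.22, -0.13 and 0.29, so the numbers were not taken to pair the samples. An offset of 64 on the linear scale, which by construction shrinks differences between low values, moved 18 called and named genes by over 1.5 times with no change of direction, and ended 1 call (Tradd, -0.14, adjusted p = 0.0559). Beside the values given with the genes, it brought Irak3 to 0.15, Tnf to 0.12, Ptgs2 to -0.31, Tnfrsf22 to 0.21, Tnfrsf18 to -0.32, Tnfsf13b to -0.23 and Tnfrsf9 to -0.18. The mean of probe sets brought Nfkbiz to 0.27. The cause of the other shifts was not tested.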
